A study of Mus musculus with 2 samples.

Results

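Levels of 10 mouse genes of cell junctions and of the nerve barrier were described in single cells of adult skeletal muscle: Cldn1, Cldn3, Cldn5, Cldn11 and Cldn19, which encode claudins, Ocln (occludin), Tjp1 (the scaffold protein ZO-1), Slc2a1 (the glucose transporter GLUT1), Krt19 (keratin 19) and Perp (a tetraspan protein of desmosomes). They were chosen by symbol, and all 10 were found among the 28001 features of each library. The study sorted tdTomato-positive cells from adult skeletal muscle of C57BL/6J mice that carried CreERT2 at both Hic1 alleles and a Cre-dependent tdTomato reporter at both Rosa26 alleles, so that tamoxifen marks cells that express Hic1, and their progeny, for good. In the E10-P56 library, 1 dose of 7.5 mg tamoxifen was given to the dam at embryonic day 10, and labelled descendants were collected at postnatal day 56. In the adult pulse library, animals received 5 daily doses of 2.5 mg tamoxifen from 8 weeks of age. Cells were thus marked in the adult. For these animals the labels also give collection at postnatal day 56, whereas the study's text gives a later day. Each group is 1 library of pooled tibialis anterior muscle, so no difference between the libraries has a replicate check. Labelling, library, software version and any difference in age at collection or chemistry cannot be told apart.

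A tight junction seals the gap between neighbouring cells: claudins and occludin span the membrane and bind across the gap, and ZO proteins tie them to actin inside the cell. In a peripheral nerve the perineurium, a sleeve of flattened perineurial cells around each bundle of axons, forms a diffusion barrier with such junctions, and GLUT1 carries glucose across it. Endothelial cells of nerve capillaries form the other side of the blood-nerve barrier with claudin 5, while myelinating Schwann cells use claudin 19 within the turns of their own membrane. Claudin 11 is best known from the myelin of oligodendrocytes and from Sertoli cells, and claudin 3 from epithelia.

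Cells were assigned to classes by how many genes of a marker list had at least 1 unique molecular identifier (UMI, 1 captured RNA molecule). None of the 10 genes was used as a marker. After removal of barcodes under 1500 UMIs or with over 10% mitochondrial UMIs, 6087 of 8236 barcodes remained in the E10-P56 library and 8567 of 9195 in the adult pulse library, with medians of 7648 and 7344 UMIs, and 15 barcodes occurred in both. Perineurial-like cells (at least 4 of 9 markers, among them Wnt6, Lypd2 and Moxd1) numbered 135 and 26, Schwann-like cells (6 of 12, among them Sox10) 76 and 9, endothelial-like cells (5 of 10, among them Pecam1 and Cdh5) 15 and 54, and fibroblasts 4165 and 6964, always in the order E10-P56, adult pulse. Cells that met 2 gates were kept apart. All 9 perineurial, 12 Schwann and 10 endothelial markers had UMIs in the class named for them, in both libraries. This follows largely from the gates, which count these same markers. The perineurial-like cells also held UMIs of all 9 fibroblast markers, at a summed level of 20654 and 21874 CPM (counts scaled to 1000000 UMIs of the class), and no UMI of Epcam, Krt5, Krt14 or Krt15, markers of epithelial cells. The Schwann-like cells stood apart in the reporter: 55.3% and 66.7% of them had a tdTomato UMI, against 99.3% and 100% of the perineurial-like cells, and how they came into the sorted fraction was not tested.

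Levels below are CPM of the summed UMIs of a class, with the exact 95% Poisson interval in brackets, which covers counting error only. Because 3′ libraries count 1 end of each RNA, transcript length does not scale them. Each cell was also thinned at random to 1500 UMIs before counting how many cells of a class held a gene, so that classes of different depth could be set side by side.

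The sequences before the transcript starts of the genes that mark each class are shown because their levels separate the classes so widely. They are RefSeq promoters on build GRCm38.p6, cut back to the bases upstream of every annotated exon, read 5′ to 3′ on the strand of the gene. Of the 10 genes, 8 had such an entry. Capitals mark matches on either strand to the GC box (GGGCGG), the core of SOX sites (ACAAAG), the motif called CCAAT box after its letters and the TATA box, searched as the letters TATAAA. The windows shown are chr16:26371842-26372089 (minus strand) for Cldn1, chr4:119108495-119108710 (plus) for Slc2a1, chr4:119255191-119255413 (plus) for Cldn19, chr16:18776597-18776846 (plus) for Cldn5, chr5:134985964-134986213 (plus) for Cldn3 and chr3:31149670-31149919 (plus) for Cldn11.
Cldn1: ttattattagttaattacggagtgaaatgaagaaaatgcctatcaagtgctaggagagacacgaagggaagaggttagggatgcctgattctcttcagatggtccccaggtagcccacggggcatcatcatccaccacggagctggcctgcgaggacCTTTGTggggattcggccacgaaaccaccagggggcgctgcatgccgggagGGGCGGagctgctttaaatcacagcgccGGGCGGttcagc
Slc2a1: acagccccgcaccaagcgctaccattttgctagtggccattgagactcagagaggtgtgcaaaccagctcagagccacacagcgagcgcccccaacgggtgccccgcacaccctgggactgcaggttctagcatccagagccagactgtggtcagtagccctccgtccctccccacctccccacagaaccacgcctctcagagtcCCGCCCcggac
Cldn19: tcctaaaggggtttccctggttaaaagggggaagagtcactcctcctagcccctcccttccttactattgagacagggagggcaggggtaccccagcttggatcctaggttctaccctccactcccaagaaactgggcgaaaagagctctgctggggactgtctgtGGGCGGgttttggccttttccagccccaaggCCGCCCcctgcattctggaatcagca
Cldn5: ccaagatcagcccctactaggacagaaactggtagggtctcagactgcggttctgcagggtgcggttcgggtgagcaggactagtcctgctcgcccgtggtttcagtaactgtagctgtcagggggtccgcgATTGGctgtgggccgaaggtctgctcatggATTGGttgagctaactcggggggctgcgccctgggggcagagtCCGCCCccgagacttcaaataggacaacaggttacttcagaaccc
Cldn3: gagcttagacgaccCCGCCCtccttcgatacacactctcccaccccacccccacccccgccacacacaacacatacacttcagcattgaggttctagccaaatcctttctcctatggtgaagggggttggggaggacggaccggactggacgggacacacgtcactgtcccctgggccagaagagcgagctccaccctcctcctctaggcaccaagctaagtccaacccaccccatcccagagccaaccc
Cldn11: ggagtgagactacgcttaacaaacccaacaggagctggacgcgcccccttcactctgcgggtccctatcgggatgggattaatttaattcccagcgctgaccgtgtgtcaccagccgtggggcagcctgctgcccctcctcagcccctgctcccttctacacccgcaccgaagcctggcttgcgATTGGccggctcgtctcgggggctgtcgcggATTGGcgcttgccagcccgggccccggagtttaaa

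Cldn1 held 2 GC boxes and, on the strand opposite to the one printed, 1 SOX core, Slc2a1 1 GC box, Cldn19 2 GC boxes, Cldn5 1 GC box and 2 CCAAT boxes, Cldn3 1 GC box and Cldn11 2 CCAAT boxes. Over 27025 promoter windows of 250 bases, 32.9% held a GC box, 16.5% a SOX core, 34.5% a CCAAT box and 13% a TATA box. These matches are a description of letters and no evidence that a factor binds. The gene for the perineurial-like glucose transporter and that for the Schwann-like claudin are neighbours on chromosome 4: Slc2a1 spans chr4:119108711-119137983 and Cldn19 chr4:119255414-119262438, both on the plus strand, 117 kb apart with 6 protein-coding genes between them. Cldn1 (chr16:26356642-26371841, minus strand) and Cldn5 (chr16:18776847-18778262, plus strand) share chromosome 16.

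In both libraries Cldn1, Slc2a1, Krt19, Perp and Ocln were highest in perineurial-like cells, Cldn19 in Schwann-like cells and Cldn5 in endothelial-like cells, while Cldn3 and Cldn11 were held mostly by fibroblasts of Pi16 type. Tjp1 had UMIs in every class shown.

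**Figure D1:**
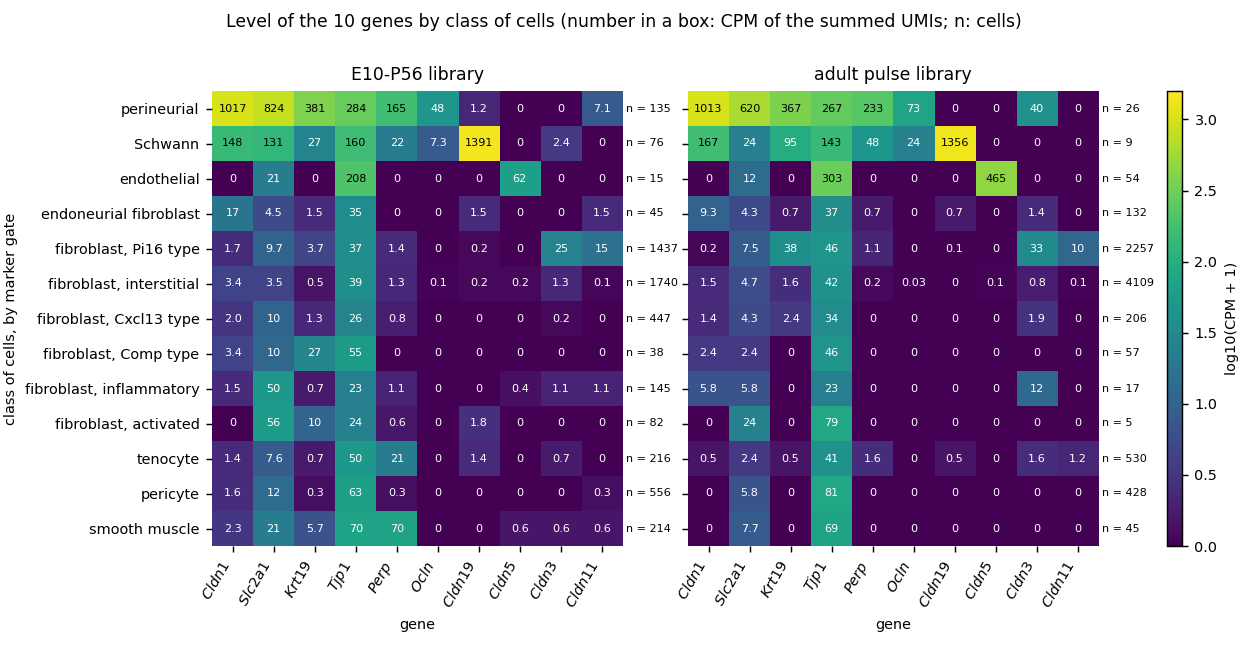
Level of each of the 10 genes (columns) in 13 classes of cells (rows), with CPM in each box, colour on a log10(CPM + 1) scale and the number of cells at the right, for the E10-P56 library on the left and the adult pulse library on the right. The top row holds the perineurial-like genes (Cldn1 at 1017 and 1013 CPM), the second row Cldn19 (1391 and 1356 CPM), the third row Cldn5 (62.4 and 465 CPM), and the row of Pi16-type fibroblasts Cldn3 (25.4 and 32.7 CPM). In the adult pulse library the top row also has Cldn3 at 40.0 CPM, from 6 UMIs.

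Cldn1, whose claudin seals epidermis and perineurium, was found in perineurial-like cells at 1017 CPM (949.7 to 1087; 856 UMIs) in the E10-P56 library and at 1013 CPM (858 to 1188; 152 UMIs) in the adult pulse library. Fibroblasts had 2.28 CPM (1.86 to 2.75) and 1.05 CPM (0.807 to 1.36). The perineurial-like level was thus 447-fold (365 to 553) and 960-fold (709 to 1315) above that of fibroblasts. After thinning, 75.6% of the perineurial-like cells in the E10-P56 library and 65.4% in the adult pulse library had a Cldn1 UMI, and 97.0% and 92.3% before thinning. In pericytes, which are not known to form such junctions, the thinned share was 0.18% in the E10-P56 library and 0 of 428 cells in the adult pulse library, which allows a share of up to 0.701%. Median depth was 5032 and 5179 UMIs in perineurial-like cells and 3848.5 and 3337.5 in pericytes. No Cldn1 UMI was seen in 15 and 54 endothelial-like cells, which allows shares of cells with a captured UMI of up to 20% and 5.56% and, at their lower depth, sets no limit on cells that express the gene.

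Of all Cldn1 UMIs in kept cells, 54.3% in the E10-P56 library and 45.9% in the adult pulse library lay in perineurial-like cells, although these made up 2.22% and 0.303% of cells. Over all kept cells, also those that met 2 gates, its level was higher with more perineurial markers up to the gate. The E10-P56 cells with 0 markers had 1.15 CPM, those with 3, just under the gate, 364 CPM (36 cells), and those with 4, just inside it, 719 CPM (36 cells). In the adult pulse library the 13 cells with 3 markers had 259 CPM and the 12 with 4 had 1058 CPM. Above the gate it did not keep rising: with 5, 6, 7 and 8 markers it was at 732, 866, 1070.0 and 902 CPM in the E10-P56 library and at 1207, 745, 548 and 447 CPM in the adult pulse library, on 3 to 69 cells each. The gate therefore cuts through a range, and cells just under it also hold Cldn1. These groups are not those of the perineurial-like class alone. In the E10-P56 library they held Cldn19 at 283 CPM with 3 markers and at 258 to 496 CPM with 4 to 8. The part of such cells in the Cldn1 levels was not tested.

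Slc2a1, through which glucose crosses the perineurium, reached 824 CPM (764 to 888; 694 UMIs) and 619.8 CPM (500.3 to 759; 93 UMIs) in perineurial-like cells. In fibroblasts it was 12.4 CPM (11.4 to 13.4) and 5.72 CPM (5.12 to 6.38), so perineurial-like cells were 66.7-fold (59.7 to 74.7) and 108-fold (85.1 to 137) higher. Thinned shares of cells with a UMI were 61.5% and 53.8% in perineurial-like cells, 84.4% and 84.6% unthinned, against 2.88% and 1.17% of pericytes. Endothelial-like cells, which carry this transporter where they form a barrier, had 1 Slc2a1 UMI in 15 cells and 3 in 54 cells, 20.8 CPM (0.527 to 116) and 12.5 CPM (2.57 to 36.4).

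Krt19, an intermediate filament of simple epithelia, was at 381 CPM (341 to 425) and 367 CPM (276 to 477) in perineurial-like cells, with thinned shares of 43.0% and 30.8% of cells (67.4% and 65.4% unthinned). Perp was at 165 CPM (139 to 195) and 233 CPM (162 to 324), with thinned shares of 20.7% and 11.5% (48.1% and 65.4% unthinned). In pericytes Krt19 and Perp had 1 UMI each in the E10-P56 library and 0 in the adult pulse library. Both genes are thus abundant in perineurial-like cells while the epithelial list is at 2.38 CPM and 0 CPM there.

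Ocln, the second membrane protein of the tight junction, was the scarcest of the genes that mark perineurial-like cells, with 47.5 CPM (33.9 to 64.7) from 40 UMIs and 73.3 CPM (36.6 to 131) from 11 UMIs. All fibroblasts together held 2 Ocln UMIs in each library, so the ratios of 1096 (284 to 9364) and 2120 (463 to 19681) have wide counting intervals. A thinned share of 8.89% and 11.5% of perineurial-like cells had an Ocln UMI (22.2% and 26.9% unthinned), and none of the 556 and 428 pericytes had one.

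Tjp1, which anchors claudins and occludin, was the least specific of the list. It was at 284 CPM (249 to 322) and 267 CPM (190.5 to 363) in perineurial-like cells, 208 CPM (99.8 to 383; 10 UMIs) and 303 CPM (238 to 381) in endothelial-like cells, and 160 CPM and 143 CPM in Schwann-like cells. The intervals of the first 2 classes overlapped in both libraries, so their order cannot be told. Fibroblasts had 34.5 CPM (32.9 to 36.3) and 43.2 CPM (41.5 to 44.9), pericytes 63.4 and 80.8 CPM, and smooth muscle cells 70.2 and 68.9 CPM. The perineurial-like level was 8.22-fold (7.14 to 9.42) and 6.18-fold (4.40 to 8.43) above fibroblasts, and because fibroblasts are so many they held 58.5% and 79.3% of all Tjp1 UMIs.

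Set against all genes, 6 of the 10 were at least 4-fold higher in perineurial-like cells than in fibroblasts in the E10-P56 library, where 5.09% of the 8770 genes compared (mean of both levels at least 10 CPM, markers left out) passed the same fold. The same 6 genes, Cldn1, Slc2a1, Krt19, Perp, Ocln and Tjp1, passed in the adult pulse library, against 6.93% of 8457 genes. Cldn3 was compared there too and did not reach 4-fold, at 3.43 (1.25 to 7.50). The remaining genes had means under 10 CPM in this comparison. A gene under 4 CPM in fibroblasts can enter only through a class where it is at least 4-fold higher, so the passing of Cldn1, Perp and Ocln in both libraries, and of Krt19 in the E10-P56 library, follows from the entry level, and nothing is read from these counts. Slc2a1 and Tjp1 in both libraries, and Krt19 in the adult pulse library, entered with fibroblast levels above that. The same entry level acts on every count of this kind given for other classes and for the wider list.

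**Figure D2:**
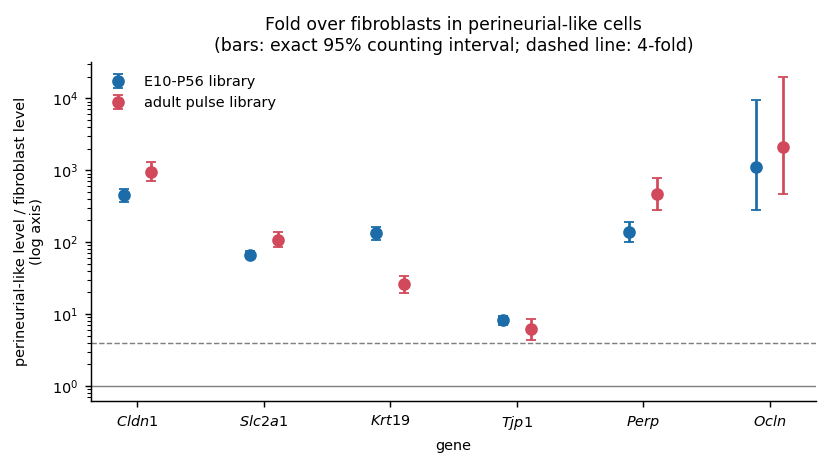
Ratio of the perineurial-like level to the fibroblast level (log axis) for 6 genes, with exact 95% counting intervals and one point per library. All 12 points lie above the dashed line at 4-fold, from 6.18-fold for Tjp1 to 2120-fold for Ocln, and the Krt19 point of the adult pulse library (26.0-fold) lies below that of the E10-P56 library (132-fold).

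Between the libraries, the perineurial-like levels were close for 3 genes, with E10-P56 over adult pulse ratios of 1.004 (0.844 to 1.20) for Cldn1, 1.04 (0.779 to 1.41) for Krt19 and 1.06 (0.759 to 1.53) for Tjp1. Slc2a1 had 1.33 (1.07 to 1.67), Perp 0.71 (0.486 to 1.06) and Ocln 0.65 (0.326 to 1.40). Only the interval of Slc2a1 lay off 1 among these 6, and it covers counting error in 1 library per group. The smaller Krt19 ratio in the adult pulse library came with a fibroblast level of 14.1 CPM against 2.88 CPM, since perineurial-like Krt19 was alike.

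UMIs of several of these 6 genes were found in the same perineurial-like cells. The 6 are those that passed 4-fold in this class, so the difference from fibroblasts follows from that choice. Whether they occur together more often than their single shares give was not tested. Of the 6, the median cell had UMIs of 4 in either library before thinning. At least 3 were found in 88.9% and 84.6% of the cells, against 0.336% and 0.201% of fibroblasts. After thinning the median was 2 in either library. At least 3 were then found in 45.2% and 34.6% of the cells, against 0.024% and 0% of fibroblasts. Cldn1 and Slc2a1 were found together in 83.0% and 76.9% of perineurial-like cells, and in 47.4% and 30.8% after thinning to 1500 UMIs. Fibroblasts had both in 6 of 4165 and 1 of 6964 cells.

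Cldn19, a claudin of myelinating Schwann cells and of kidney, was at 1391 CPM (1279 to 1510; 574 UMIs) in the 76 Schwann-like cells of the E10-P56 library and at 1356 CPM (1027 to 1757; 57 UMIs) in the 9 of the adult pulse library. Every one of these cells had a Cldn19 UMI, and 88.2% and 100% still had after thinning. Perineurial-like cells had 1 UMI in 135 cells and 0 in 26, and no pericyte had one. Fibroblasts had 10 UMIs and 1 UMI, so the ratios to fibroblasts were 6419 (3465 to 13458) and 78437 with an interval from 13523 upward.

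In Schwann-like cells, 6 of the 10 genes were at least 4-fold above fibroblasts in the E10-P56 library, against 8.63% of the 8797 genes compared: Cldn19, Cldn1 (148 CPM, 113 to 190), Slc2a1 (131 CPM, 98.3 to 171), Tjp1, Krt19 (26.7 CPM) and Perp (21.8 CPM). In the adult pulse library 6 passed against 15.6% of 8109 genes, but Ocln and Slc2a1 rested on 1 UMI each and Perp on 2. With more than 3 UMIs required, Cldn19, Cldn1 and Krt19 remained. Cldn19, Cldn1, Perp and Ocln were under 4 CPM in fibroblasts of both libraries, and Krt19 in the E10-P56 library. Where these passed, it follows from the entry level, and these counts are given as a description only. Perineurial markers moved with these values: 7 of 9 had UMIs in the Schwann-like cells of either library, at 332 and 809 CPM in sum against 18.4 and 20.1 CPM in fibroblasts, with Msln at 0 in both, Crabp2 at 0 in the first and Mpzl2 at 0 in the second.

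The E10-P56 Schwann-like cells were therefore split by perineurial markers. Cldn1 was at 52.2 CPM (19.2 to 114) in the 26 cells with none, 22.0 CPM (6.00 to 56.4) in the 33 with 1, and 439 CPM (327 to 577) in the 17 with 2 or more. Krt19 was at 0, 5.51 and 86.0 CPM in the same order, and Cldn19 at 1558, 1608 and 886 CPM. Slc2a1 was at 131 CPM (73.1 to 215), 93.6 CPM (54.5 to 149.9) and 189 CPM (119 to 287), with intervals that overlap between neighbouring groups. Schwann-like cells without any perineurial marker thus held both Slc2a1 and Cldn1 above the fibroblast levels of 12.4 and 2.28 CPM. Of the 61 Cldn1 UMIs of the class, 51 lay in the 17 cells with 2 or more perineurial markers. Of the adult pulse library, 3 Schwann-like cells with no perineurial marker had no Cldn1 UMI, 1 Slc2a1 UMI and Cldn19 at 717 CPM. The other 6, all with 2 or more, had Cldn1 at 217 CPM (87.2 to 447) and Cldn19 at 1550 CPM (1150.3 to 2043). These 6 held no Slc2a1 UMI, with an interval up to 114 CPM, below that of the like E10-P56 group (119 to 287). With 1 Slc2a1 UMI in 3 cells, the E10-P56 value in cells without perineurial markers could not be checked there.

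Perineurial-like cells were split by Schwann markers in turn, but those with 6 or more of these had been set apart by the gates. Over all kept E10-P56 cells, 6 and 2 had 4 and 5 Schwann markers. The split thus covers cells with few Schwann markers, and no asymmetry is read from it. Perineurial-like cells of the E10-P56 library had Cldn1 at 1134 CPM with no Schwann marker (87 cells), 779 CPM with 1 (33 cells) and 1109 CPM with 2 or more (15 cells), and of these groups only the first held a Cldn19 UMI. Cells that met both gates, 58 in the E10-P56 library with a median of 10445 UMIs, had both claudins, Cldn1 at 634 CPM (573 to 699.8) and Cldn19 at 884 CPM (812 to 962). In 54 of these 58 cells, and in 9 of 10 such cells of the adult pulse library, UMIs of Cldn1 and Cldn19 occurred under the same barcode.

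**Figure D3:**
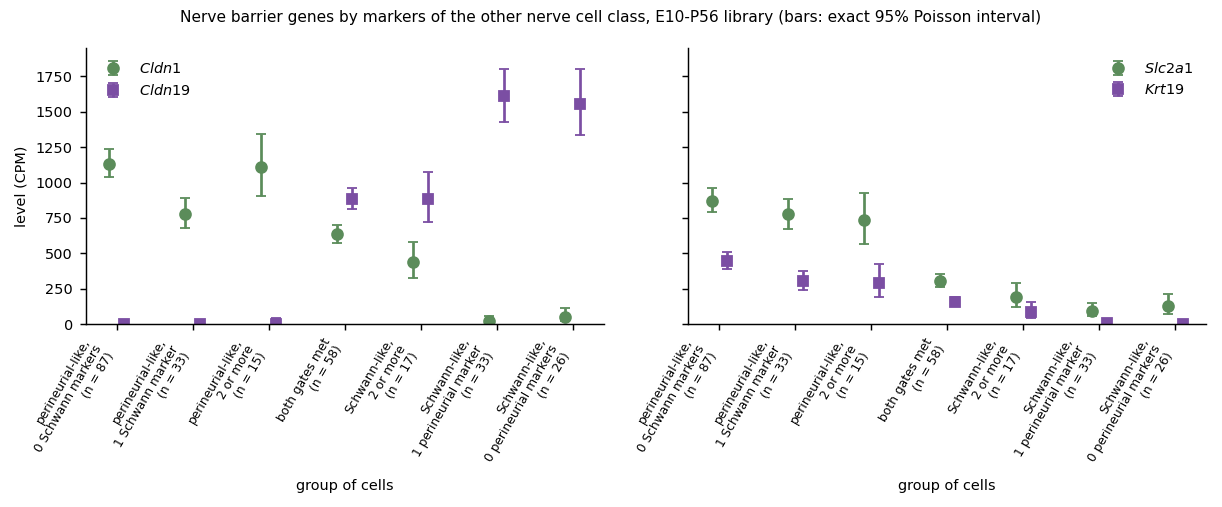
Levels (CPM, linear axis, exact 95% Poisson intervals) of Cldn1 and Cldn19 (left) and of Slc2a1 and Krt19 (right) in cells of the E10-P56 library, ordered from perineurial-like cells without Schwann markers to Schwann-like cells without perineurial markers. Cldn19 stays at or near 0 in the 3 perineurial-like groups and lies at 884 CPM or above in the other 4, and Cldn1 lies at 22.0 and 52.2 CPM in the last 2.

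Cldn5, the claudin of endothelial barriers, was found in endothelial-like cells at 465 CPM (383 to 560; 112 UMIs) in the adult pulse library, where the gene was seen in 51.9% of 54 thinned cells and in 66.7% of unthinned ones. In the E10-P56 library only 15 cells were classed as endothelial-like, and 3 of them had 1 Cldn5 UMI each, 62.4 CPM (12.9 to 182). Further cells met the endothelial gate together with a second one and were set apart. This level thus covers only a part of the cells that met the gate. No UMI of Cldn5 was found in perineurial-like, Schwann-like or pericyte cells of either library, and fibroblasts held 4 and 3 UMIs. Of its 22 UMIs in the E10-P56 library, 14 lay in cells that met 2 gates.

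Of the 10 genes, 2 were at least 4-fold higher in endothelial-like cells than in fibroblasts in each library, Cldn5 and Tjp1, against 17.0% of 8674 genes compared in the E10-P56 library and 7.95% of 8603 in the adult pulse library. Cldn5 was under 4 CPM in fibroblasts, so its passing follows from the entry level. The E10-P56 count for Cldn5 rests on 3 UMIs. For Tjp1 the folds were 6.02 (2.88 to 11.1) and 7.03 (5.49 to 8.87). Endothelial-like cells were shallow, with medians of 2624 and 3005 UMIs, and 1 UMI equals 20.8 CPM in the E10-P56 class.

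Cldn3, a claudin of epithelia, was held mostly by a fibroblast subset here. Fibroblasts were split by which of 6 marker lists they held most of, and those of Pi16 type (Pi16, Dpp4, Smpd3, Sema3c, Wnt2, Cd55, Efemp1 and Stmn4), 1437 and 2257 cells, had Cldn3 at 25.4 CPM (23.1 to 28.0) and 32.7 CPM (30.2 to 35.3). Interstitial-type fibroblasts, 1740 and 4109 cells, had 1.32 CPM (0.824 to 1.99) and 0.781 CPM (0.510 to 1.14). The ratio was 19.4 (12.6 to 31.2) and 41.9 (28.3 to 64.6), and Pi16-type fibroblasts held 89.2% and 90.4% of all Cldn3 UMIs. Perineurial-like cells held no Cldn3 UMI in the E10-P56 library and 6 in the adult pulse library, at 40.0 CPM. Per cell the gene is sparse: 4.11% and 5.01% of Pi16-type cells had a UMI after thinning (17.8% and 18.9% before), against 0.115% and 0.122% of interstitial-type cells and 0 of 556 and 428 pericytes.

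Cldn11 too was held mostly by Pi16-type fibroblasts, at a lower level. In the adult pulse library, cells that fell in no class held 8.73% of all Cldn11 UMIs, against 0.563% of all Cldn3 UMIs. Cldn11 was at 14.9 CPM (13.1 to 16.9) and 10.2 CPM (8.87 to 11.8) in Pi16-type fibroblasts. There 2.30% and 1.24% of thinned cells had a UMI (7.65% and 4.87% unthinned). Interstitial-type fibroblasts held 2 and 3 UMIs, a ratio of 125 (34.1 to 1035) and 114 (38.4 to 556). No Schwann-like or endothelial-like cell had a Cldn11 UMI, and perineurial-like cells had 6 UMIs in 3 cells of the E10-P56 library, 4 of them in 1 cell.

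Levels of both claudin genes followed the number of Pi16-type markers over all fibroblasts. Cldn3 was at most 1.03 CPM in cells with 0 to 3 of the 8 markers in the E10-P56 library and at most 0.229 CPM in the adult pulse library. With all 8 markers it was at 47.6 CPM (37.1 to 60.3; 100 cells) and 50.7 CPM (42.5 to 60.1; 224 cells). Cldn11 reached 27.6 CPM (19.7 to 37.6) and 26.9 CPM (21.0 to 33.9) there. Depth moved with marker number, from medians of 4484 and 5375.5 UMIs at 0 markers to 13038.5 and 11207.5 at 8. The part of depth was not tested. Tjp1 gave a level between 28.5 and 42.9 CPM and between 37.7 and 48.2 CPM over the same groups of cells.

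Krt19 was higher with more Pi16-type markers in the adult pulse library, whereas in the E10-P56 library it lay between 0.520 and 4.40 CPM with 0 to 7 of them. In Pi16-type fibroblasts it was at 3.68 CPM (2.81 to 4.74) in the E10-P56 library and at 38.3 CPM (35.6 to 41.1) in the adult pulse library, a ratio of 0.10 (0.07 to 0.13). Thinned shares of cells with a Krt19 UMI were 0.696% and 5.36%, and 2.51% and 14.6% unthinned. In cells with all 8 markers the levels were 13.1 CPM (7.90 to 20.5) and 62.5 CPM (53.3 to 72.8), and in cells with 6 they were 1.93 and 29.9 CPM. In the E10-P56 library 3 other groups of fibroblasts were above the Pi16 type: Comp type at 27.4 CPM (11.8 to 54.0; 8 UMIs, all in 1 of 38 cells), cells of no subset at 12.5 CPM (8.42 to 17.8; 30 UMIs in 5 of 276 cells) and activated type at 10.2 CPM (5.95 to 16.4; 17 UMIs in 5 of 82 cells). The interstitial-type level was 0.478 CPM from 8 UMIs and 1.62 CPM from 54 UMIs, 27 of which lay in 1 cell. Of all Krt19 UMIs, 47.9% lay in perineurial-like cells in the E10-P56 library, whereas 82.5% lay in Pi16-type fibroblasts in the adult pulse library.

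Markers of other cell types were also summed in these fibroblasts. Epcam, Krt5 and Krt14 had no UMI in Pi16-type cells of either library. The 6 epithelial markers summed to 2.70 CPM in the E10-P56 library and 1.43 CPM in the adult pulse library, most of it Sfn. Of 5 mesothelial markers, 1 had UMIs (Upk3b, 3 and 2), with Lrrn4, Gpm6a, Upk1b and Bnc1 at 0. The 9 perineurial markers summed to 16.7 and 19.4 CPM. These are sums over the class, so no source of Krt19 is read from them. What lies behind the Krt19 difference was not tested.

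Against all genes, 1 of the 10 (Cldn3) was at least 4-fold higher in Pi16-type than in interstitial-type fibroblasts in the E10-P56 library, where 0.883% of 8264 genes passed, and 2 (Cldn3 and Krt19) in the adult pulse library, where 1.13% of 8158 passed. Cldn11 was under the level of 10 CPM that a comparison needed. Cldn3 in both libraries and Krt19 in the adult pulse library were under 4 CPM in interstitial-type cells, so these counts too follow from the entry level. Between libraries, 1 of 4 genes compared in Pi16-type fibroblasts was past 2-fold (Krt19), against 4.39% of 8069 genes, and its E10-P56 level of 3.68 CPM means that it entered only through the adult pulse library. Over all fibroblasts none of the 2 compared, Cldn3 and Tjp1, was past 2-fold, against 4.65% of 8245 genes, with ratios of 0.83 (0.731 to 0.932) and 0.80 (0.751 to 0.852).

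**Figure D4:**
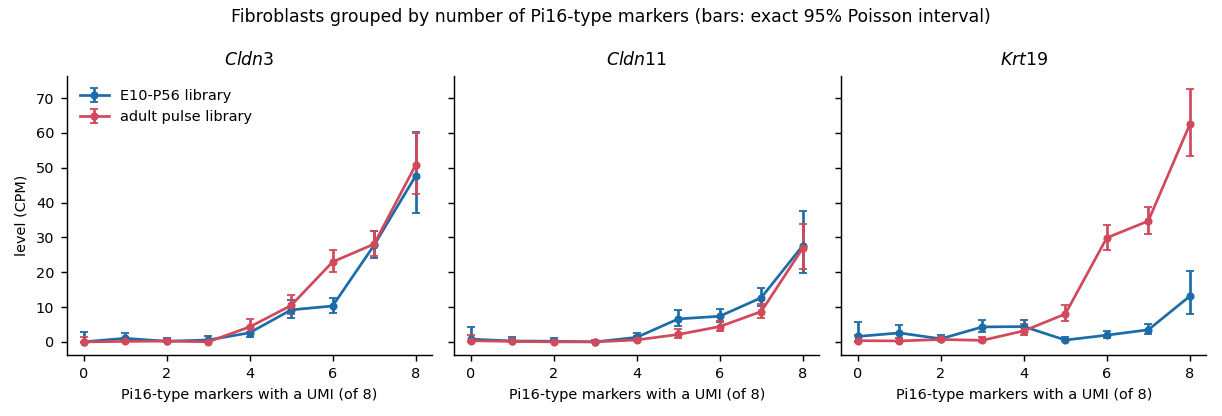
Levels (CPM, exact 95% Poisson intervals) of Cldn3, Cldn11 and Krt19 in fibroblasts grouped by how many of 8 Pi16-type markers had a UMI, with one line per library. Cldn3 and Cldn11 end at like levels in both libraries (47.6 and 50.7 CPM, 27.6 and 26.9 CPM), whereas Krt19 ends at 13.1 CPM in the E10-P56 library and 62.5 CPM in the adult pulse library.

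Slc2a1 had a further site outside the nerve. In the E10-P56 library it was at 50.2 CPM (42.2 to 59.3) in 145 inflammatory-type fibroblasts and at 56.5 CPM (45.7 to 69.1) in 82 activated-type fibroblasts, against 9.75 CPM (8.29 to 11.4) in Pi16-type and 3.47 CPM (2.63 to 4.48) in interstitial-type cells. Cycling cells, 77 in number, had 44.6 CPM (37.5 to 52.8). The 17 inflammatory-type cells of the adult pulse library held 1 UMI, 5.79 CPM (0.147 to 32.3), and the 5 activated-type cells 4 UMIs, 24.2 CPM (6.59 to 61.9), so that the intervals of the libraries overlap for activated-type cells and not for inflammatory-type cells, on 4 UMIs and 1 UMI in the adult pulse library. Its 12 cycling cells had no Slc2a1 UMI, which allows a level of up to 12.5 CPM, below the E10-P56 interval.

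In E10-P56 fibroblasts Slc2a1 was at 5.74 CPM with none of the activated-type markers and at 23.3 and 59.7 CPM with 3 and 4 of them. With 5 inflammatory-type markers it was at 85.2 CPM (68.3 to 105), against 4.87 CPM (3.79 to 6.16) with none. Median depth moved with these numbers too, from 6744 UMIs with 0 inflammatory-type markers to 25137 with 5, and its part was not tested. Perineurial markers were near the general fibroblast level in these cells, at 21.1 CPM in inflammatory-type and 22.8 CPM in activated-type cells of the E10-P56 library, and Cldn1 was at 1.46 CPM and 0. Thinned shares of cells with a Slc2a1 UMI were 4.83% and 11%, and 26.9% and 34.1% unthinned.

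**Figure D5:**
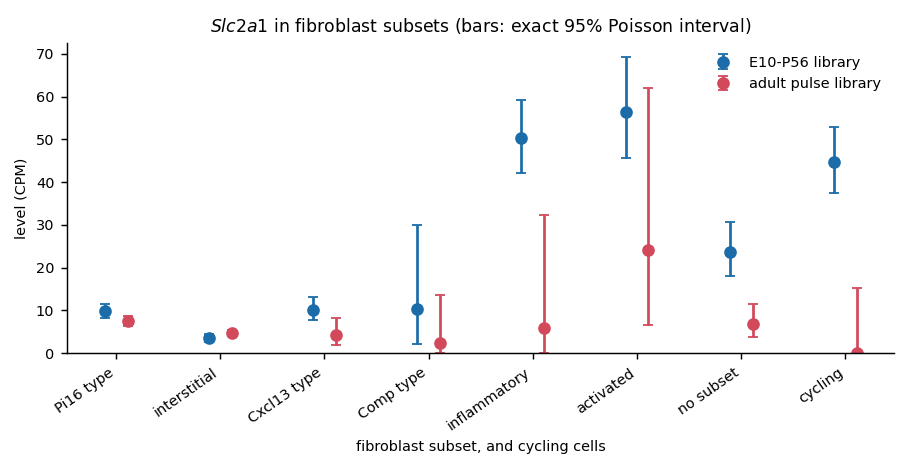
Level of Slc2a1 (CPM, exact 95% Poisson intervals) in 7 groups of fibroblasts and in cycling cells, one point per library. In the E10-P56 library the inflammatory, activated and cycling groups (50.2, 56.5 and 44.6 CPM) lie above the Pi16 and interstitial types (9.75 and 3.47 CPM), while those groups hold 1 UMI, 4 UMIs and no UMI in the adult pulse library.

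Perp had 2 further sites in the E10-P56 library. Smooth muscle cells had 69.6 CPM (57.9 to 83.1; 123 UMIs in 214 cells) and tenocytes 21.4 CPM (14.6 to 30.4; 216 cells). Without the limit of 10% mitochondrial UMIs, the E10-P56 library had 624 smooth muscle cells and the adult pulse library 59. The E10-P56 values thus cover only a part of this class. In the adult pulse library 45 smooth muscle cells held no Perp UMI, which allows a share of up to 6.67% of cells and a level of up to 11.5 CPM, and 530 tenocytes had 1.65 CPM (0.663 to 3.40). Thinned shares of E10-P56 cells with a UMI were 6.54% of smooth muscle cells and 2.31% of tenocytes (24.8% and 9.26% unthinned), against 0 of 556 pericytes. Over all kept E10-P56 cells Perp was at 2.01 and 6.72 CPM with 5 and 6 of 7 smooth muscle markers and at 84.2 CPM in the 124 cells with all 7, whereas the adult pulse library held 7 cells with all 7, so the smooth muscle cells of the libraries are not alike in this. Perineurial markers summed to 34.0 CPM and 15.3 CPM in the smooth muscle cells of the libraries, and the 6 epithelial markers to 1.13 CPM and 0.

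Further genes of junctions and barriers were taken as a list of 69, of which 68 were in the files. In perineurial-like cells 12 of 27 that could be compared were at least 4-fold above fibroblasts in the E10-P56 library and 9 of 23 in the adult pulse library, 44.4% and 39.1%, with the same background shares of 5.09% and 6.93% and the same effect of the entry level. Among them were F11r, which encodes the junction protein JAM-A, at 109 and 80.0 CPM (265-fold and 201-fold), Abcb1a, an efflux pump of barriers, at 118 and 167 CPM (102-fold and 67.9-fold), Slc16a1, a lactate transporter, at 186 and 113 CPM (10.2-fold and 8.67-fold), and Cgnl1, which encodes paracingulin, at 243 and 120.0 CPM (16.1-fold and 9.80-fold). Cldn22 was at 199.5 and 167 CPM (249-fold and 136-fold), which is uncertain because Cldn24 is a near-identical copy. Of 18 further claudin genes 3 and 2 could be compared in perineurial-like cells, and of these Cldn22 alone passed.

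In Schwann-like cells of the E10-P56 library 11 of 26 genes of this list passed, against 8.63% of all genes compared. These cells held Pmp22, which encodes a myelin protein of the claudin superfamily, at 7388 CPM (22.3-fold). Cdh1 (E-cadherin) had 27 UMIs against 0 in fibroblasts, at least 1006-fold higher, and Jam3 was at 337 CPM (12.6-fold). In the adult pulse library 10 of 25 passed, several on 1 to 3 UMIs, against 15.6% of all genes compared. In endothelial-like cells 12 of 28 and 9 of 23 passed, against 17.0% and 7.95% of all genes compared. Among those that passed were Esam and Jam2, adhesion molecules of endothelial junctions, at 540.0 and 490.2 CPM in the adult pulse library (1041-fold and 14.6-fold). In Pi16-type fibroblasts, set against the interstitial type, 1 of 18 passed in each library, against 0.883% and 1.13% of all genes compared. It was Ildr2, which encodes a protein of tricellular junctions, at 5.87-fold and 7.54-fold. Ildr2 also passed in perineurial-like cells of both libraries. There it had the highest CPM of the genes of this list that passed.

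Likeness between genes was described by Pearson's r of log2(CPM + 10) over the 24 classes of both libraries with at least 30 cells. It was taken among 13137 genes, with no test, since the classes share libraries and depth. Perineurial-like (26 cells) and Schwann-like cells (9) of the adult pulse library and endothelial-like cells (15) of the E10-P56 library were under that minimum. Each of these classes thus enters as a single point, from the other library only. A high r for Cldn1, Cldn19 or Cldn5 can rest on that point. Cldn1 was most like Dleu7 (0.989), Ctxn3 (0.981) and Itgb4 (0.961), Cldn19 most like Ugt8a, Mal and Fa2h (all 0.999), and Cldn5 most like C1qtnf9, Adgrl4 and Myct1 (all 0.999). Cldn3 was most like Slc6a4 (0.944) and Cldn11 most like Gabra2 (0.943). For the less specific genes the best values were lower, with Tjp1 0.921 for C130074G19Rik, Krt19 0.901 for Hcn4, Slc2a1 0.885 for Rala and Perp 0.874 for Chchd10. Among the 10, the pairs with the highest r were Cldn1 with Ocln (0.951), Ocln with Krt19 (0.862), Ocln with Slc2a1 (0.852) and Cldn3 with Cldn11 (0.842). All kept cells held only 66 and 18 Ocln UMIs in the E10-P56 and adult pulse libraries, so its pairs rest on few counts.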

How the data were processed

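Per the authors, the matrices hold unnormalised UMI counts for every gene in every barcode, made with Cell Ranger (5.0.0 for the E10-P56 library, 3.0.2 for the adult pulse library, per the file headers, where the study's reporting form names another version) on a modified mm10 genome. The depositors' labels give the chemistry only as 10x 3′ v2 or v3. The 10 genes, the marker lists and the wider junction list were chosen with earlier results of these data known, and the numbers of markers that each gate needs were set after seeing their distribution. From the deposited counts, barcodes under 1500 UMIs or over 10% mitochondrial UMIs were left out (1310 and 839 in the E10-P56 library, 465 and 163 in the adult pulse library). The libraries held 67460919 and 69153173 UMIs. UMIs were summed per class and scaled to CPM. Levels have exact Poisson intervals, ratios exact conditional binomial intervals and shares Clopper-Pearson intervals, all at 95%. A level of 0 in 1 class was taken as 3 counts for a bound. Doublets were not removed for the values given, leaving out the cells with the highest Scrublet scores was an alternative, and cells that met 2 gates were kept apart. With 1 library per group no test was made. Genes named outside the 10 were those of the lists at least 4-fold higher, or the 3 most alike in pattern. Positions come from GENCODE M21 (GRCm38), promoters from RefSeq. Python 3.11.15, scipy 1.17.1 and scanpy 1.11.5 were used, and the code was tested on simulated counts.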

Additional observations from a re-analysis of the deposited data

Results flagged for a closer look

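Cldn3 was below the fibroblast level in perineurial-like cells of the E10-P56 library and above it in those of the adult pulse library, with ratios of at most 0.370 and of 3.43. The first value is a bound from 0 UMIs in 135 cells, and the second rests on 6 UMIs in 2 of 26 cells, 4 of them in 1 cell. The difference was not tested.

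Barcodes left out for low UMIs or high mitochondrial share, 2149 in the E10-P56 library and 628 in the adult pulse library, also held these genes above the limit that a count of 0 allows. In the E10-P56 library their levels were 22.0 CPM for Cldn1, 3.43 for Cldn3, 1.21 for Cldn5, 5.24 for Cldn11, 4.44 for Cldn19, 49.2 for Tjp1, 24.4 for Slc2a1, 11.9 for Krt19 and 55.6 for Perp. In the adult pulse library they were 16 CPM for Cldn1, 8.00 for Cldn3, 7.00 for Cldn5, 5.0003 for Cldn19, 70.0 for Tjp1, 26.0 for Slc2a1, 21.0 for Krt19 and 8.00 for Perp. Cell classes were not assigned to these barcodes for the levels given here. In the alternative without a mitochondrial limit, smooth muscle cells of the E10-P56 library numbered 624 in place of 214. Tenocytes there numbered 244 in place of 216 and perineurial-like cells 141 in place of 135. In the adult pulse library smooth muscle cells numbered 59 in place of 45.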

How the results depend on the processing

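No paired analysis was possible because each group is 1 library and no result comes from a test. The 6 genes at least 4-fold above fibroblasts in perineurial-like cells kept that fold under every alternative that gave a value, in both libraries. For Cldn1, Perp, Ocln and E10-P56 Krt19 this follows from the entry level of 10 CPM, except in the alternative with no filter on low levels. No direction reversed. Leaving out the cells with the highest Scrublet scores changed no count. Leiden clusters gave no perineurial cluster in the adult pulse library, so that count was not run there, and the class with the highest level stayed the same in 12 of 19 pairs of gene and library. The endothelial-like count of the E10-P56 library was 1 in place of 2 with a minimum of 3000 UMIs per cell (Cldn5) and 1 with more than 3 UMIs required (Tjp1). The Schwann-like count of the adult pulse library was 3 in place of 6 with more than 3 UMIs required. The count past 2-fold between libraries in fibroblasts was 0, against 1 with Leiden clusters (Slc2a1), 2 without mitochondrial and ribosomal protein genes (Slc2a1 and Krt19) and 5 with no filter on low levels (Cldn1, Cldn19, Slc2a1, Krt19 and Perp). The share of all genes past 2-fold was not taken under these settings, so nothing is read from these counts. For Cldn19 the call rests on 10 UMIs and 1 UMI. Of single levels, 138 stayed within their counting interval and 27 did not, 9 of these with every cell thinned to 1500 UMIs and 7 without mitochondrial and ribosomal protein genes. Folds were checked only for their side of the 4-fold line, where 225 stayed and 2 did not, so their size may have moved further. Of shares of cells with a UMI, 10 stayed and 28 moved, 16 without thinning and 12 with thinning to 3000 UMIs. Leaving out the 15 shared barcodes and requiring more than 3 UMIs were chosen after seeing the data. Depth limits the Schwann-like cells of the adult pulse library (9) and the endothelial-like cells of the E10-P56 library (15), where single UMIs equal 23.8 and 20.8 CPM.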
